A study of Mus musculus with 12 samples.

Results

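The SOX family encodes transcription factors that share an HMG box, a DNA-binding domain that inserts into the minor groove, bends the helix and recognises short sequences such as CATTGTT. SOX2 works in pluripotent cells together with OCT4, often on a composite OCT4::SOX2 motif, whereas most of its relatives are known as regulators of lineages that form later. The genes described here are 10 autosomal members of the family: Sox1 (SOXB1) and Sox21 (SOXB2), which act in neural progenitors, Sox4 and Sox11 (SOXC), known from neuronal and mesenchymal progenitors, Sox5, Sox6 and Sox13 (SOXD), Sox9 and Sox10 (SOXE), and Sox15 (SOXG). Their members in the data are the accessible chromatin regions that overlap the gene body or the 50 kb to either side of it, 246 of 170548 regions in all. No region fell to more than 1 of the 10 genes.

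Accessible regions were mapped by ATAC-seq, in which the Tn5 transposase inserts sequencing adapters into open DNA, in mouse embryonic stem (ES) cells grown with serum, LIF and the inhibitors CHIR99021 and PD184352. In the line ZHBTc4 a Tet-Off promoter drives Pou5f1, which encodes OCT4, and in the line 2TS22C it drives Sox2, so that doxycycline (dox, 1 µg/ml) shuts the gene off. The 12 libraries formed 6 groups of 2: OCT4 ON (untreated) and OCT4 OFF (dox) at 24 hr in ZHBTc4, and SOX2 ON and SOX2 OFF at 26 hr and at 40 hr in 2TS22C. The data used here are 1 merged list of regions over all of these experiments, which gives a start and an end for each region and no value per library. Depth is therefore unknown, no ON condition can be set against its OFF condition, no test over samples was possible, and a region may have been open in a single condition or in all of them. The values below describe where the regions lie, and a gene with many regions is not thereby shown to be expressed.

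Every position is on mm10 (GRCm38), with genes from GENCODE M21. A transcription start site (TSS) is the 5′ end of any annotated transcript of a gene, and the 5′ end of the gene is that of its outermost transcript. A region was called promoter-proximal when its center lay within 1 kb of any TSS and distal otherwise. All 20807 autosomal protein-coding genes serve as the background, and 98.1% of them had at least 1 region in the same kind of window, so that the presence of regions at all 10 SOX genes does not set them apart.

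The start sites are shown first, because 9 of the 10 genes had a region over a TSS. The 100 bases before the 5′ end are printed for 4 genes, with each CG in capitals. These genes span the lowest and the highest number of CG dinucleotides in this stretch. The 5′ end is the outer one of GENCODE and RefSeq, so that no annotated transcript of the gene itself is included. These 4 stretches lay inside the region over the start site.
Sox5, chr6:144782288-144782387, minus strand: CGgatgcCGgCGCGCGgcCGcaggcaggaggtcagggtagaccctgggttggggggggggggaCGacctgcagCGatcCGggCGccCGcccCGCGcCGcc
Sox4, chr13:28953714-28953813, minus strand: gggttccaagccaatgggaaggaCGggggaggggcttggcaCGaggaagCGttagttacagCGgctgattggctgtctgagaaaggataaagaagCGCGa
Sox11, chr12:27342719-27342818, minus strand: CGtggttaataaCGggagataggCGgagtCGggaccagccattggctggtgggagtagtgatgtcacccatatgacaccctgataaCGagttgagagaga
Sox15, chr11:69654937-69655036, plus strand: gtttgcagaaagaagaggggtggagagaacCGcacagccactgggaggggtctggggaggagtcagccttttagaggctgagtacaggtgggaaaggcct
Sox5 had 14 CG dinucleotides in this stretch, Sox4 had 6, Sox11 had 5 and Sox15 had 1. The stretch at Sox1 had 6, that at Sox9 had 5, and those at Sox13 and Sox21 had 4 each. The stretches at Sox1 and Sox21 lie within the non-coding genes Sox1ot and Gm4675, outside annotated exons. The stretch at Sox13 lay wholly outside its start-site region, since its RefSeq 5′ end lies 10 bp beyond the edge.

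A region covered a TSS at Sox1, Sox4, Sox5, Sox6, Sox9, Sox11, Sox13, Sox15 and Sox21, but not at Sox10, compared with 70.3% of all autosomal protein-coding genes. At 8 of the 10 genes the region covered the 5′ end of the gene, compared with 62.8% of all genes. The exceptions were Sox6, a regulator of chondrocyte, red blood cell and muscle differentiation, and Sox10, a regulator of the neural crest and of myelinating glia. The 5′ end of Sox6 lay 748 bp from the edge of the nearest region, and 2 other regions covered 3 of its 13 annotated TSSs, 4.60 and 7.69 kb inside the gene. Among the TSSs of GENCODE, that nearest region had only one of the neighbouring gene 1110004F10Rik within 1 kb of its center. The TSS of this neighbour lies 601 bp from the 5′ end of Sox6, on the other strand. The nearest region to Sox10 (chr15:79162965-79164291, 1327 bp) was centered 1.61 kb inside the gene and covered none of its 4 annotated TSSs, although its center was within 1 kb of a TSS of Sox10. With the 5′ ends of RefSeq, which differ from those of GENCODE by 0 to 1980 bp, a region covered 7 of the 10, and the nearest edge was 39 bp away at Sox6, 199 bp away at Sox10 and 10 bp away at Sox13. The nearest region at Sox6 was again the one at 1110004F10Rik. It lies inside the RefSeq gene, with its center within 1 kb of the RefSeq 5′ end of Sox6. The share over all genes was not computed with RefSeq.

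The regions over the 5′ ends were wide at Sox21, Sox11, Sox4 and Sox5 and of ordinary width at the other 4 genes. The region at Sox21 spanned 2951 bp (chr14:118234548-118237498), that at Sox11 2511 bp (chr12:27341199-27343709), that at Sox4 2025 bp (chr13:28951896-28953920) and that at Sox5 1796 bp (chr6:144781329-144783124). These were wider than the regions of 99.7%, 99.2%, 96.3% and 92.6% of the 13069 genes with a region over the 5′ end, where the median was 1138 bp. In this background a region over the 5′ ends of several genes counts once for each gene. At Sox15 the region spanned 1211 bp, at Sox13 1127 bp, at Sox9 1021 bp and at Sox1 942 bp, on both sides of that median. The median of the 8 SOX regions was 1504 bp. In a merged list, width also depends on how many peaks were joined into a region.

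CpG content is given as the observed number of CG dinucleotides over that expected from the C and G content of the region. It was 0.965 at Sox13, 0.952 at Sox11, 0.899 at Sox4, 0.856 at Sox21, 0.815 at Sox9, 0.812 at Sox1, 0.661 at Sox5 and 0.487 at Sox15. The median was 0.836 for these 8 regions and 0.723 over all 13069 genes with such a region. In 7 of the 8 it exceeded 0.6, a usual limit for CpG islands, as it did in 75.2% of the regions over the 5′ ends of all genes. Sox15, a close relative of the SOXB1 genes that is expressed in ES cells, was the exception, and 12.9% of the background regions had a lower ratio. In a fixed 300 bp around the 5′ end the order of the medians turned, with 0.713 for the SOX genes and 0.805 for all genes, so the higher median of the SOX genes held for the whole regions only.

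**Figure D1:**
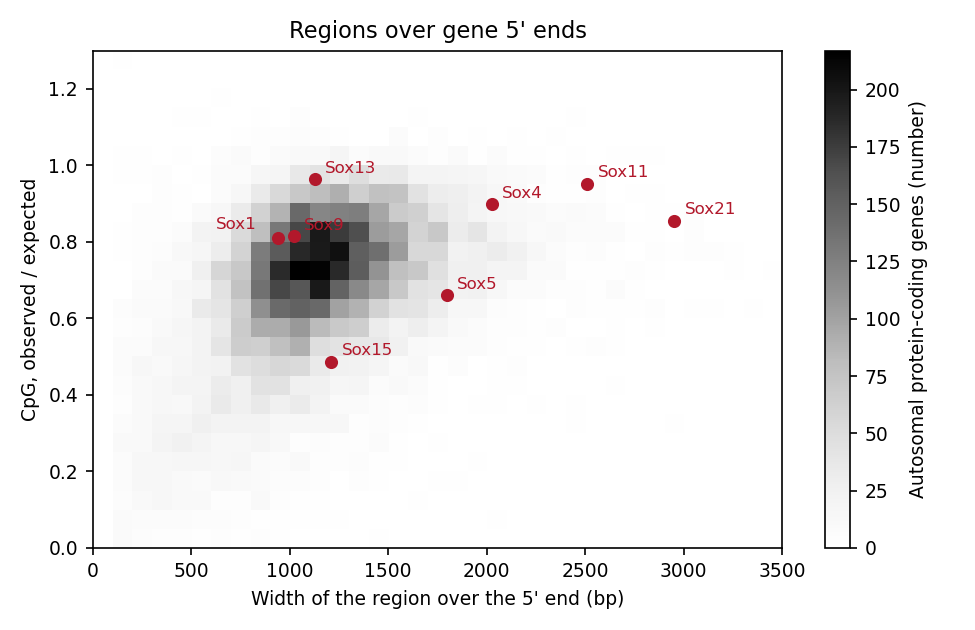
Width in bp (x axis) and observed over expected CpG (y axis) of the regions over gene 5′ ends. Grey squares count autosomal protein-coding genes, with 11 regions beyond the plotted range, and red points are the 8 SOX genes with such a region. Sox21 (2951 bp) and Sox11 (2511 bp) lie at the far right and Sox15 (0.487) lies lowest.

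The number of regions ranged from 6 at Sox11 to 82 at Sox5 and was highest at the longest genes, Sox5 and Sox6, so the counts were divided by the length of the window. Sox15 had 18.7 regions per 100 kb and Sox21 had 18.3, more than 88.5% and 86.9% of all genes. Sox13 followed with 15.5, Sox4 with 13.4, Sox9 with 13.3, Sox10 with 12.7 and Sox1 with 12.4. Sox5 had 7.78 regions per 100 kb, Sox6 had 6.44 and Sox11 had 5.54, and the last exceeded 21.3% of all genes. Among the 339 autosomal protein-coding genes over 400 kb, which include Sox5 and Sox6, the median was 4.26 and the upper quartile 6.38. Sox5 and Sox6 both lay above that quartile, Sox6 only narrowly, and the quartile was not computed under other settings. The median of the 10 genes was 13.0 and that of all genes 10.7, with 7 of the 10 above the latter. The share of bases under a region was 13.1% at Sox15, 10.9% at Sox21, 9.37% at Sox13, 9.32% at Sox1, 9.13% at Sox4, 8.65% at Sox10, 5.81% at Sox9, 4.10% at Sox11, 3.38% at Sox5 and 3.11% at Sox6. The median was 8.89% for the SOX genes and 5.75% for all genes. For the genes over 400 kb it was 1.84%, with an upper quartile of 2.88%, which Sox5 and Sox6 also exceeded.

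**Figure D2:**
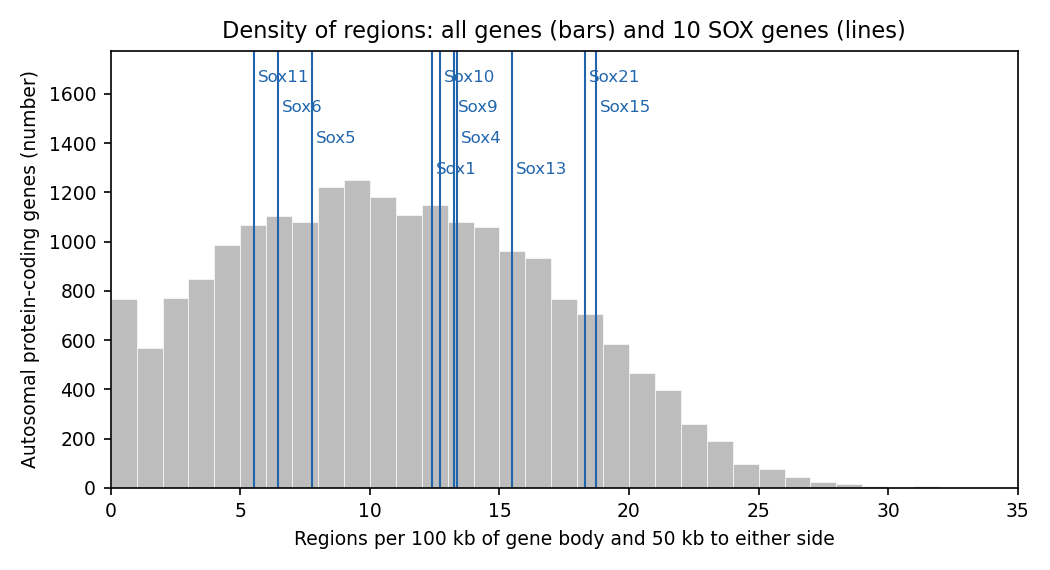
Histogram of the number of regions per 100 kb (x axis) over the gene body and 50 kb to either side for autosomal protein-coding genes (y axis, number of genes). Blue lines mark the 10 SOX genes, from Sox11 at 5.54 to Sox15 at 18.7.

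Distances to the nearest distal region, measured from the 5′ end to the center of the region, differed by more than an order of magnitude. They were 1325 bp at Sox9, 1544 bp at Sox13, 3478 bp at Sox1, 4830 bp at Sox4, 6032 bp at Sox15, 6096 bp at Sox21, 9490 bp at Sox5, 16551 bp at Sox10, 21656 bp at Sox11 and 32846 bp at Sox6. The median was 6064 bp, compared with 7201 bp for all genes, and 6 of the 10 genes were below the latter. At Sox6 the nearest region of any class was centered 1344 bp upstream of the GENCODE 5′ end, and regions 4.60 to 7.93 kb inside the gene were promoter-proximal. The nearest distal region of Sox6 lay in an intron of the neighbouring gene 1110004F10Rik. Within 50 kb of the 5′ ends, 79 regions lay downstream and 48 upstream, a mean of 7.90 and 4.80 per gene, where the means over all genes were 5.69 and 5.37. Most of the surplus lay between 20 and 50 kb, with 44 regions downstream (4.40 ± 2.46 per gene, SD over 10 genes) and 26 upstream (2.6 ± 1.35). In this interval 8 of the 10 genes had more regions downstream, and 2, Sox5 and Sox6, had more upstream. For all genes the means were 3.21 and 3.18, with 40.5% having more downstream and 40.4% more upstream. Whether the SOX genes differ from the rest in this was not tested. Of the 44 downstream regions in this interval, 7 lay at Sox10 and 8 at Sox15. At both genes most regions of the window were nearest to the TSS of another protein-coding gene.

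**Figure D3:**
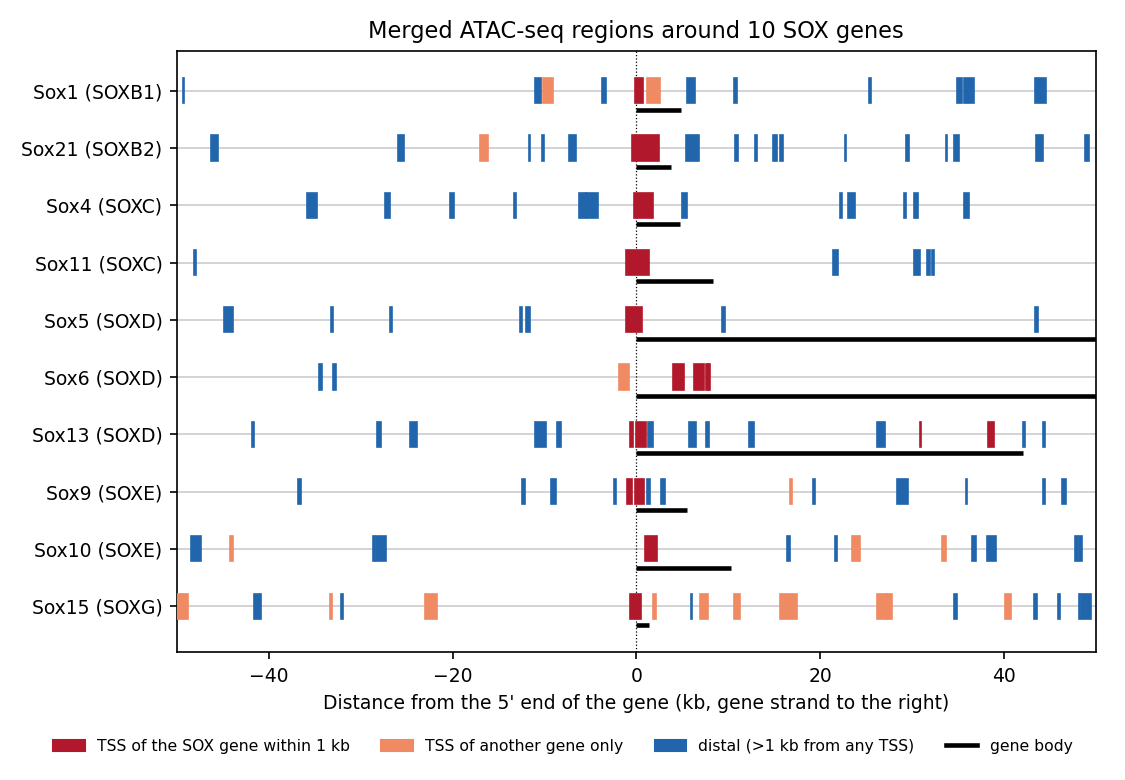
Positions of the regions within 50 kb of the 5′ end of each SOX gene (x axis, kb, with the gene's own strand to the right), 1 row per gene. Red boxes cover the 5′ end or have their center within 1 kb of a TSS of the SOX gene, orange boxes have only a TSS of another gene within 1 kb, blue boxes are distal, and black bars are gene bodies. Sox15 sits among orange boxes, while Sox4 and Sox11 have blue boxes only, apart from the one at their start.

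Of the 246 regions, 42 were promoter-proximal, 11 exonic, 131 intronic and 62 intergenic. Distal regions made up 82.9% (95% Wilson interval 77.7 to 87.1, counting error only), compared with 82.7% of the whole list. Intronic regions were more frequent than in the whole list (53.3% against 38.5%) and intergenic regions less frequent (25.2% against 38.9%), but 99 of the 131 intronic regions lay at Sox5 and Sox6. At the other 8 genes 26.4% of 121 regions were intronic, 43.0% intergenic and 26.4% promoter-proximal. The nearest protein-coding TSS was that of the SOX gene for 204 of the 246 regions (82.9%), including every region at Sox1, Sox4, Sox5, Sox9 and Sox11. This applied to 3 of 14 regions at Sox10 and to 1 of 19 at Sox15. Of the 204 regions, 82 lay at Sox5 and 40 at Sox6, the longest genes. The same share over all genes was not computed, so 82.9% has no background here.

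Sox1, a marker of the neuroectoderm, had 13 regions between -49.3 and 51.0 kb. The long non-coding transcript Sox1ot overlaps the gene on the same strand, and 6 of the distal regions lay within it. The widest region (1410 bp) was centered 1.82 kb inside Sox1 and a second wide one (1160 bp, chr8:12438733-12439892) 44 kb downstream. No region lay in the 38.2 kb from chr8:12346094 to chr8:12384273. Sox21, a SOXB2 protein known as a transcriptional repressor, had 19 regions, of which 14 were intergenic. Its nearest distal region (1348 bp) was centered 6.10 kb downstream of the 5′ end, and 10 of the 19 regions lay within 20 kb. Upstream of the gene, 3 distal regions lay in the non-coding gene Gm4675, which is transcribed in the opposite direction from a start inside the wide region of Sox21.

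The SOXC genes Sox4 and Sox11, both without introns, differed in their surroundings. Both lie far from other protein-coding genes: the nearest other protein-coding TSS was 696 kb from Sox4 and 873 kb from Sox11, and Sox9 (837 kb) was the only other one of the 10 beyond 500 kb, where 1.3% of all genes lay. Around Sox4, 14 regions were spread on both sides, 6 upstream and 7 downstream, with a pair of 1312 and 736 bp centered 4.83 and 5.89 kb upstream. Around Sox11 there were 6: the one at the start site, a group of 3 regions of 646, 354 and 226 bp centered 30.5 to 32.2 kb downstream, one of 483 bp at 21.7 kb downstream and one of 222 bp at 48.0 kb upstream. Sox11 had no region in the 46.8 kb directly upstream of its start-site region.

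The SOXD genes Sox5 and Sox6, whose proteins lack a transactivation domain of their own and act with SOX9 in cartilage, are the longest of the 10. The body of Sox5 spans 954 kb and that of Sox6 568 kb, and they held 75 and 37 of the 82 and 43 regions. In consecutive 100 kb bins from the 5′ end, Sox5 had 4, 7, 4, 13, 12, 9, 6, 4 and 10 regions, and 5 in the last, shorter bin. The densest bins were those from 300 to 500 kb. In Sox6 the bins held 7, 6, 4, 9 and 7 regions, and 4 in the last, shorter bin. The median width of their regions was 338 bp at Sox5 and 368 bp at Sox6, compared with 379 bp for the whole list. The longest stretch without a region was 82.4 kb in Sox6 (chr7:115948404-116030764), which lies inside the gene body, and 54.8 kb in Sox5. Sox13, the shortest SOXD gene (42.1 kb), had 22 regions, 9 of them in its body, and 16 whose nearest protein-coding TSS was its own. The remaining regions were nearer to its neighbours, among which are Ren1, encoding renin, and Etnk2, an ethanolamine kinase gene.

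**Figure D4:**
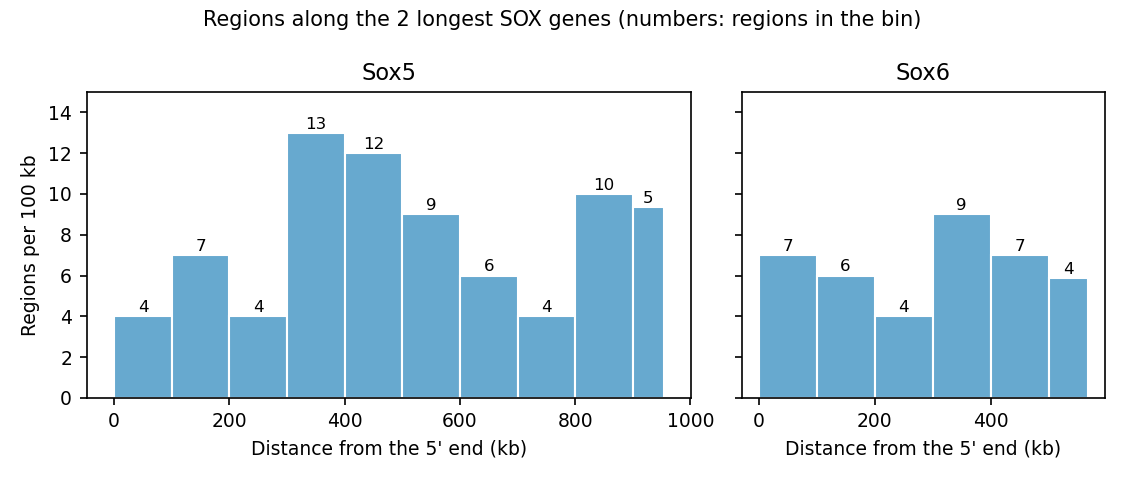
Regions per 100 kb (y axis) in consecutive bins from the 5′ end (x axis, kb) along Sox5 and Sox6, with the number of regions above each bar. The last bin of each gene is shorter than 100 kb. Sox5 peaks at 13 and 12 regions between 300 and 500 kb, and Sox6 at 9 between 300 and 400 kb.

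Sox9, which drives cartilage and testis development, had 14 regions, and 6 lay within 10 kb of the 5′ end, as many as at Sox13. These included 1 of 345 bp in an intron 1.33 kb inside the gene and 1 of 526 bp centered 0.786 kb upstream. Upstream, 5 regions had their center in the non-coding gene BC006965, which runs away from Sox9 on the other strand. The widest region (1225 bp) was intergenic, 29.0 kb downstream. At Sox10, 6 of the 14 regions had their center in Micall1 and 4 in the non-coding gene Gm10863, and the 28.2 kb from chr15:79164292 to chr15:79192467, which include its 5′ end and the sequence upstream, held none. Sox15 had the densest window and the most crowded one, with 11 TSSs of other protein-coding genes. Of its 11 promoter-proximal regions, 10 were at the TSS of other genes, such as the widest one (1873 bp, 16.5 kb downstream) at Eif4a1, which encodes a translation initiation factor.

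Sequence was not used to choose the regions. The central 200 bp of each region were searched on both strands for the SOX element (CATTGTT or CTTTGTT), the octamer ATGCAAAT bound by OCT4, the OCT4::SOX2 composite (a SOX half-site, CATTGT or CTTTGT, 1 base of any kind and the octamer, with at most 2 mismatches) and a SOX pair (ACAATG and CATTGT, 3 to 5 bases apart). In regions narrower than 200 bp this window reaches past the edges, and a composite without mismatches also holds an octamer. A SOX element was present in this 200 bp window at 30 of 246 regions, 12.2% (Wilson interval 8.68 to 16.9), compared with 10.8% of the whole list. An octamer was present in 7 regions, 2.85% (1.39 to 5.76), compared with 2.01%. A composite was present in 1 region, 0.407% (0.0718 to 2.27), compared with 1.05%. A SOX pair was found in 0 of 246 regions, which allows a share of up to 1.22% when the limit is set at 3 counts (1.54% by the Wilson interval), and in 0.0223% of the whole list. Each background share lay within the interval of the SOX regions or under that limit, so no difference was detectable with 246 regions.

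The SOX elements were spread over 7 genes, with 13 regions at Sox5, 5 at Sox21, 4 at Sox13 and 2 each at Sox4, Sox6, Sox9 and Sox11, and none at Sox1, Sox10 and Sox15. The 13 at Sox5 were 15.9% of its regions. At the narrow regions 864 kb inside Sox5 and 35.9 kb downstream of Sox9, the element counted lay in the search window but outside the region. The octamer was present in 2 regions each at Sox1, Sox4 and Sox6 and in 1 at Sox9. The composite lay in an intron of Sox5, 530 kb from the 5′ end, in a region of 169 bp that is shown in full because it is the only one, with the 15 bases of the match, which has 2 mismatches, in capitals.
Sox5 intron, chr6:144251726-144251894, minus strand: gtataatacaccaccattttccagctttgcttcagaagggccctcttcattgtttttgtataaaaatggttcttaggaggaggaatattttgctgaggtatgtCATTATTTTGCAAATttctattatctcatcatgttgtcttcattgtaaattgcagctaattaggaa
The same region held a SOX element, which here is in lower case. The distal regions with octamers outside annotated exons at Sox1, Sox4 and Sox9 are shown with 16 bases to either side of the octamer, which is in capitals. They show that the octamers at Sox4 included a pair within 1 region.
Sox1, 44 kb downstream, chr8:12439209-12439248, plus strand: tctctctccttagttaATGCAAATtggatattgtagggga
Sox4, 27.1 kb upstream, chr13:28980864-28980903, plus strand: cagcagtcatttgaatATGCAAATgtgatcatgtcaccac
Sox4, 35.3 kb upstream, first match, chr13:28988902-28988941, minus strand: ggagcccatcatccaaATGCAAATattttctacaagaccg
Sox4, 35.3 kb upstream, second match, chr13:28988953-28988992, plus strand: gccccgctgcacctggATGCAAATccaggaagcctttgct
Sox9, 36.7 kb upstream, chr11:112745516-112745555, plus strand: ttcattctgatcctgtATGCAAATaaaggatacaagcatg
At Sox21, 4 of the regions with a SOX element lay upstream of the gene, and the pair nearest to it is shown in the same way, with the element in capitals.
Sox21, 6.94 kb upstream, chr14:118243989-118244027, plus strand: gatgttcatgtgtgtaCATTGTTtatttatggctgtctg
Sox21, 10.2 kb upstream, chr14:118247184-118247222, plus strand: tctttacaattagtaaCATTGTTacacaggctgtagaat
A match of letters does not show that a factor was bound, and occupancy was not measured in these data.

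For comparison, 9 further genes of the family were counted, without the Y-linked Sry. All 9 had a region over a TSS, which makes 18 of these 19, where the share over all autosomal protein-coding genes was 70.3%. Sox2, Sox7 and Sox17 and the X-linked Sox3 are outside the 10 genes, as are Sox8, Sox12, Sox14, Sox18 and Sox30. The number of regions was 20 at Sox2, 18 at Sox12, 16 at Sox30, 14 at Sox18, 9 at Sox17, 7 each at Sox8 and Sox14, 5 at Sox7 and 3 at Sox3. Among the 8 autosomal ones the density ranged from 4.67 to 19.6 regions per 100 kb, a wider range than the 5.54 to 18.7 of the 10 genes described here. Their median was 10.0, compared with 13.0 for the 10 genes and 10.7 for all autosomal protein-coding genes. Sox2 is itself the gene under the Tet-Off promoter in 2TS22C.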

How the data were processed

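ATAC-seq libraries of ZHBTc4 and 2TS22C mouse ES cells, in biological duplicate per condition, were the source of the data. Per the methods of the study and the processing notes in the labels, the authors aligned reads to mm10 with STAR 2.6.1c, removed duplicates with Picard, called peaks with MACS2 2.1.1.20160309 in paired-end mode and merged all peaks with bedtools. Whether peaks were called per replicate, and whether Tn5 cut sites were shifted, is not given in the sources used here. The paper also used published ATAC-seq data of ZHBTc4 cells grown in serum and LIF. Whether peaks from those data entered the list is not given either. The deposited list holds no other value than positions in bp. The authors later removed regions over 5 kb, regions in the input and blacklisted regions. In the list 16 regions (0 of those at the SOX genes) exceed 5 kb, so it precedes the removal by width. Whether it still holds regions found in the input or blacklisted ones was not checked. Depth per library is unknown. Merging across conditions widens regions and joins neighbouring peaks.

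Starts were converted to count from 1. Regions were assigned to the 10 SOX genes when they overlapped the gene body or 50 kb to either side (GENCODE M21). Densities used assembled bases. Exonic, intronic and intergenic describe where the center of a distal region lies in any annotated gene. Percentiles are mid-ranks among all genes. Sequence was read from GRCm38.p6, and 95% Wilson intervals cover counting error only. The functions that count regions and find motifs were tested on simulated data: 500 windows gave 0 differences from direct counting, and 800 of 800 planted matches were found. Python 3.11.15, NumPy 2.4.6, pandas 2.3.3, SciPy 1.17.1 and matplotlib 3.10.9 were used.

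The genes, the family list and the motifs were chosen with earlier results of these data known. All 10 genes were named, and regions were named when they lay over a start site, were the widest or the nearest distal one of a gene, or held a composite. Those with an octamer, the SOX elements shown at Sox21 and the further regions described at Sox1, Sox4, Sox9, Sox10 and Sox11 were chosen after their values were seen, as were the sequences printed. Alternatives were other windows, width minimums, TSS sets, motif windows and mismatch limits. No test over samples was run, since no library has values of its own here.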

Additional observations from a re-analysis of the deposited data

How the results depend on the processing

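No paired analysis was possible because single libraries have no values here, and leaving out a replicate could not be done for the same reason. Under the alternatives for window, width, joining, TSS set and motif search that were listed for these results, 30 values stayed within 1.5 times the value above or within its interval, and 5 moved. Counting only within 50 kb of the 5′ end, without the gene body, lowered the number of regions from 246 to 127, since most of the bodies of Sox5 and Sox6 was left out, while the median density was 13.0 per 100 kb for the SOX genes and 11 for all genes. The share of regions with a SOX element was 19.9% in the central 400 bp and 22.4% in whole regions, where the whole list gave 18.8% and 20.4%. The share with a composite was 0% at 1 mismatch and 5.28% at 3, where the whole list gave 0.114% and 5.75%. In whole regions a composite was present in 5 of the 246, 2.03%, compared with 1.99% of the list. Without Sox5 and Sox6, a choice made after seeing the data, 73.6% of regions were distal. The number of genes with a region at a start site was 10 within 1 kb of the TSS, 8 at the 5′ end and 7 at the RefSeq 5′ end. Over all genes the share at the 5′ end was 62.8%. It was not computed for the limit of 1 kb or for the RefSeq 5′ ends, so those counts have no background. With 20 kb to either side, the median density was 15.1 per 100 kb for the SOX genes and 10.9 for all genes, and with 100 kb it was 11.3 and 10.5. Of the values for single genes, 17 moved by more than 1.5 times and 93 did not.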

Other observations

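The surroundings were also counted out to 500 kb on either side of the 5′ end, where neighbouring genes contribute more. The order at this scale differed from that in the 50 kb windows for some genes. Around Sox11, 21 regions lay within 500 kb, 2.1 per 100 kb, where the median of all genes was 9.60 and 2.1% of genes had fewer. Within 100 kb Sox11 had 7 regions, 3.50 per 100 kb, and 10.9% of genes had fewer. Sox4 and Sox9, the other genes far from protein-coding neighbours, had 78 and 71 regions within 500 kb, 7.80 and 7.10 per 100 kb, and lay below the median too. Sox13 and Sox15 had 158 regions each, 15.8 per 100 kb, and Sox21 had 154, 15.4 per 100 kb. For Sox10, 14.5 regions per 100 kb lay within 500 kb and 13.0 within 50 kb, and for Sox5 12.6 and 8.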
